A study of Mus musculus with 24 samples.

Results

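In a mouse liver count table, 10 entries carry the symbols of plasma proteins that the liver secretes in inflammation, and they were followed through 8 groups of libraries. They were chosen by symbol from 24421 entries: haptoglobin (Hp), hemopexin (Hpx), ceruloplasmin (Cp), lipocalin 2 (Lcn2), the orosomucoids Orm1, Orm2 and Orm3, and the serum amyloid A genes Saa1, Saa2 and Saa4. All 10 were found, and all 10 passed the filter on low counts. Orm2 and Orm3 passed it only through the m12_WD and m12_WD+VC groups, and would have failed without either, so that both had to be high there. They are described but are left out of the counts and medians over members, which rest on the other 8 unless 10 are named. Lcn2 passed with m12_WD or m12_WD+VC left out, but leaving out both together was not tried. Every library outside these groups held at most 11 counts of it, so Lcn2 too was kept through them. It stays among the 8, but its part in counts and medians against other groups carries no weight.

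The livers came from male C57Bl/6J mice in a 2 by 2 by 2 design of diet, inhaled vinyl chloride (VC, an industrial monomer) and time. WD is a Western-style diet with 42% fat and CD a control diet with 13% fat. Groups named +VC breathed 0.85 ± 0.1 ppm VC for 6 hours a day, 5 days a week, over 12 weeks, and the others breathed air. Livers named w12 were taken straight after those 12 weeks, and livers named m12 after 9 more months of housing, with or without WD feeding, so the 8 groups are m12_WD+VC, m12_WD, m12_CD+VC, m12_CD, w12_WD+VC, w12_WD, w12_CD+VC and w12_CD. Each had 3 libraries of ribosome-depleted total RNA. Whether every library comes from a separate animal is not stated in the labels, and the p-values describe only how these libraries scatter, which may in part be technical. Levels are given as CPM, the count divided by the deposited library total and scaled to the usual common depth.

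The acute-phase response is the change in plasma protein output by which hepatocytes answer infection or injury. Cytokines of the interleukin-6 family act through the transcription factor STAT3, and interleukin-1 and tumour necrosis factor act through NF-kB and C/EBP factors. In mice the serum amyloid A and orosomucoid genes and haptoglobin are among the most responsive, while albumin, transthyretin and transferrin typically fall.

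The libraries were shallow, which sets how firmly low levels can be read. Of 24 libraries, 23 held 126160 to 962493 counts, so that a count of 0 allowed up to 3.12 to 23.8 CPM, and w12_WD 3 held 607 counts. That library is left out of the levels below, which therefore rest on 2 w12_WD libraries, and stays in the fit. Of the calls given below, Orm1 in the interaction and over time in WD, and Cp in diet by time, narrowly missed the threshold without it (adjusted p = 0.0601, 0.0512 and 0.0688, edgeR). All limits and intervals cover counting error only. The 10 entries together held 27778 of 8606009 counts. Hepatocyte genes such as Alb and Apob were counted in the libraries, and of 14 hepatocyte markers 13 passed the filter. The other, Ass1, a urea cycle gene that hepatocytes express, was listed at 0 in every library, so a gene at 0 in this table cannot be taken as silent.

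The entries differed widely in abundance. Per kilobase of exon, the median level over 23 libraries was 614 CPM for Hp, 219 for Hpx, 193 for Saa4, 171 for Orm1, 48.0 for Saa1, 26.0 for Cp, 25.3 for Saa2, 16.7 for Orm2, 6.05 for Lcn2 and 3.24 for Orm3. The weakly counted entries at the end of that order are also those with counts of 0 in some libraries.

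The serum amyloid A genes and the orosomucoids are clustered, and the DNA upstream of their starts shows which copies resemble each other. Saa1, Saa2 and Saa4 lie within 26316 bases of chromosome 7, with the starts of Saa1 (minus strand) and Saa2 (plus strand) 8810 bases apart, and the 3 orosomucoids lie within 21319 bases of chromosome 4. The 250 bases before the RefSeq transcript start (GRCm38.p6) are printed for 7 members, because related copies with like or unlike upstream DNA are compared in the counts below. They are Hpx (chr7:105600117-105600366, minus strand), Lcn2 (chr2:32387740-32387989, minus), Saa1 (chr7:46742981-46743230, minus), Saa2 (chr7:46751583-46751832, plus), Saa4 (chr7:46732604-46732853, minus), Orm2 (chr4:63362199-63362448, plus) and Orm3 (chr4:63355908-63356157, plus). Each is written 5′ to 3′ on the strand of its gene, and capitals mark matches on either strand to TTGCNNAA, letters of the site that C/EBP factors bind.
Hpx: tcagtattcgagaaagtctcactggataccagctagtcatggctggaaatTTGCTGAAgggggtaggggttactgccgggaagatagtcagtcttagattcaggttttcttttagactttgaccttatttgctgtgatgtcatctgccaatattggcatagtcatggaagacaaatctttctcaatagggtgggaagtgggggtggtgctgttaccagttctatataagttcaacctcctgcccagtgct
Lcn2: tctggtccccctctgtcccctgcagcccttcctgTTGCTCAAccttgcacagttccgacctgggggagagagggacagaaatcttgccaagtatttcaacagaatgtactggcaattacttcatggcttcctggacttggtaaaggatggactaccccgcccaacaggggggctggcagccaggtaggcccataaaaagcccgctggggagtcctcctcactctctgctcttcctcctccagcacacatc
Saa1: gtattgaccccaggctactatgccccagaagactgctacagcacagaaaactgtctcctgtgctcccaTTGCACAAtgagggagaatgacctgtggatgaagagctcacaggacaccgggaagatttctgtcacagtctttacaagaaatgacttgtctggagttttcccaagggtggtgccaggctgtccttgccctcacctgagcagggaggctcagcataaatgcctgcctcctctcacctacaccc
Saa2: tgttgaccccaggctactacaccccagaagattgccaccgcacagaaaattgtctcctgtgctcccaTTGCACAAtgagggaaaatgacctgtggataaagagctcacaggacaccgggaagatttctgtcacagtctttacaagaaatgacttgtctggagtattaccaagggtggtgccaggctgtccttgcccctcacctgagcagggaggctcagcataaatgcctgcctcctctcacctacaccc
Saa4: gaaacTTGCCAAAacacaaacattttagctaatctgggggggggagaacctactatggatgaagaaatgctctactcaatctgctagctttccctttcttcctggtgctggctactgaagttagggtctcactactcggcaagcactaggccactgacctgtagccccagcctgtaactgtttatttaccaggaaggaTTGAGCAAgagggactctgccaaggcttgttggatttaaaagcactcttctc
Orm2: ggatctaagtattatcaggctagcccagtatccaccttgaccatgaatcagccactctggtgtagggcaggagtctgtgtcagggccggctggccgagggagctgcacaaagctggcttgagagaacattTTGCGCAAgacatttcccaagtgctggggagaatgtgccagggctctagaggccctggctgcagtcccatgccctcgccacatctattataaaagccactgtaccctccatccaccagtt
Orm3: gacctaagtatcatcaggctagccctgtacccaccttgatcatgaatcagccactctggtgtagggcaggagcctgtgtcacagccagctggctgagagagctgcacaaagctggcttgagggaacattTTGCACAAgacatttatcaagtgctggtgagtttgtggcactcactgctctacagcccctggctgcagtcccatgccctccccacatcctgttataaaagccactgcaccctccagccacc
Saa1 and Saa2 were identical over 94.8% of the aligned upstream bases and Orm2 and Orm3 over 85.9%, whereas Saa1 and Saa4 shared 49.5%. TTGCNNAA was found upstream of all 8 member genes with an entry in the RefSeq promoter table, in 8 of their 9 promoters (Cp has 2 starts, with a match before 1 of them), and in 9.56% of all 32851 promoters of the same length. Its place was nearly the same within a pair, 182 to 175 bases before the start in Saa1 and 183 to 176 in Saa2, and 120 to 113 bases before it in Orm2 and 121 to 114 in Orm3. Saa4 had its matches elsewhere, at 245 to 238 and at 52 to 45 bases. The STAT3-type letters TTCNNNGAA (7.02% of all promoters) and an NF-kB-type motif (0.980%) did not occur in these windows on either strand. Such matches describe letters and not binding.

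**Figure D1:**
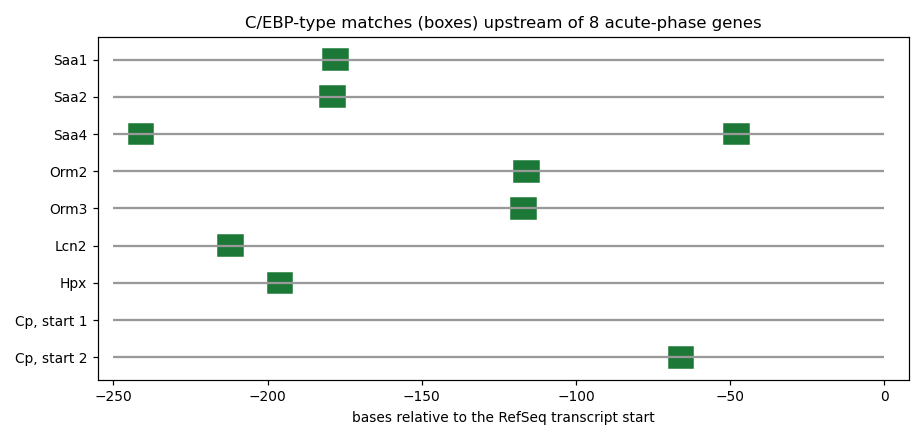
Positions of TTGCNNAA matches (green boxes, either strand) in the 250 bases before each RefSeq transcript start (grey lines, 0 is the start). The boxes of Saa1 and Saa2 lie at the same place, as do those of Orm2 and Orm3, and 1 of the 2 Cp starts has no box.

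Haptoglobin binds free haemoglobin and carries it to clearance, and it was the most abundant of the 10. Hp stood at 2029, 2167 and 1298 CPM in m12_WD+VC, 3210, 3868 and 2798 CPM in m12_WD, 928, 2315 and 1647 CPM in m12_CD+VC, and 464, 884 and 546 CPM in m12_CD. Every m12_WD library was above every other library of the series, and the m12_CD libraries were the lowest at that time. At 12 weeks Hp averaged 1105 ± 113 CPM in w12_WD+VC, 453 ± 307 in w12_WD, 833 ± 360 in w12_CD+VC and 569 ± 117 in w12_CD (SD, n = 3, and 2 for w12_WD). Hp rose 4.08-fold in m12_WD over m12_CD (log2 2.03 ± 0.36 SE, adjusted p = 0.000148, edgeR quasi-likelihood test with Benjamini-Hochberg adjustment over 4198 genes), the test used for every comparison below. In these tissue RNAs, fewer cells of a type and less RNA per cell cannot be told apart.

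Hemopexin takes up free haem and delivers it to the hepatocyte. Hpx reached 976, 747 and 313 CPM in m12_WD+VC, 1279, 1567 and 755 CPM in m12_WD, 617, 824 and 489 CPM in m12_CD+VC, and 72.3, 261 and 127 CPM in m12_CD. The 3 treated groups overlapped one another and each lay wholly above m12_CD. Hpx rose 6.13-fold in m12_WD over m12_CD (log2 2.62 ± 0.40, adjusted p = 2.35e-05) and 3.28-fold in m12_CD+VC over m12_CD (log2 1.71 ± 0.40, adjusted p = 0.0147). At 12 weeks its group means lay between 175 and 366 CPM.

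Ceruloplasmin is the copper-carrying ferroxidase of plasma. Cp stood at 318, 295 and 200 CPM in m12_WD+VC, 483, 892 and 317 CPM in m12_WD, 328, 618 and 250 CPM in m12_CD+VC, and 69.3, 198 and 163 CPM in m12_CD. All m12_WD, m12_CD+VC and m12_WD+VC libraries were above those of m12_CD, and the 3 groups overlapped one another. Cp rose 3.04-fold in m12_WD over m12_CD (log2 1.60 ± 0.34, adjusted p = 0.000872). Its exons overlap those of Hps3 on the other strand by 108 bases, and no source used here states whether counting used strand. The Hps3 entry, with 930 counts against 2498 for Cp, had a log2 fold change of 2.52 ± 0.39 in the same comparison (adjusted p = 2.67e-05), and its part in the Cp counts was not tested.

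Lipocalin 2 binds bacterial siderophores and withholds iron from microbes, and neutrophils make it as well as hepatocytes. Lcn2 stood at 170, 93.6 and 48.8 CPM in m12_WD+VC, 99.9, 209 and 39.5 CPM in m12_WD, 8.49, 15.9 and 28.6 CPM in m12_CD+VC, and 9.03, 17.0 and 0 CPM in m12_CD. Both WD groups lay above all other libraries of the series, in which Lcn2 never passed 28.6 CPM. Lcn2 rose 9.46-fold in m12_WD over m12_CD (log2 3.24 ± 0.75), given with no p-value because the filter kept Lcn2 through these WD groups. It was called in 14 of 14 alternatives, of which only the fit with no filter was free of that selection. In m12_WD+VC over m12_CD+VC its log2 fold change was 2.42 ± 0.74, which missed the threshold (adjusted p = 0.0884), although the libraries of these groups did not overlap, as for 12.2% of all genes with the higher values in m12_WD+VC. None of the neutrophil markers was tested. Their summed level ran from 12.8 to 29.6 CPM in m12_WD+VC, 11.1 to 53.0 CPM in m12_WD, 0 to 2.83 CPM in m12_CD+VC and 0 to 4.25 CPM in m12_CD. S100a9 held 60 of their 96 counts in the series, with 17, 41, 0 and 0 counts in the same groups, while Retnlg and Mmp8 had 0 counts in every library. Of the 13 markers, 0 passed the filter, and their part in the Lcn2 values was not tested.

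The orosomucoids are small plasma glycoproteins that bind drugs and lipids. Orm1 stood at 431, 226 and 89.8 CPM in m12_WD+VC, 254, 467 and 167 CPM in m12_WD, 215, 380 and 265 CPM in m12_CD+VC, and 48.2, 102 and 51.7 CPM in m12_CD. The m12_WD and m12_CD+VC libraries overlapped each other and all lay above m12_CD. Orm1 rose 3.34-fold in m12_WD over m12_CD (log2 1.74 ± 0.46, adjusted p = 0.00637) and 3.27-fold in m12_CD+VC over m12_CD (log2 1.71 ± 0.47, adjusted p = 0.0324).

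Orm2 and Orm3 had few counts and another order of groups. Orm2 stood at 134, 39.0 and 28.2 CPM in m12_WD+VC, 62.9, 88.4 and 23.9 CPM in m12_WD, 14.2, 0 and 18.2 CPM in m12_CD+VC, and 0, 21.3 and 12.9 CPM in m12_CD. Its 6 m12 libraries on WD were above the 6 on CD, the nearest values being 23.9 and 21.3 CPM. The fitted log2 value of m12_WD over m12_CD was 1.88 ± 0.67, given with no test because Orm2 was kept by the filter through the WD groups. In m12_CD+VC over m12_CD its log2 fold change was −0.16 ± 0.80 (adjusted p = 0.922).

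Orm3 was counted 7, 13 and 2 times in m12_WD+VC and 30, 11 and 1 times in m12_WD, and 0 times in the 6 CD libraries of that age. Taking 3 counts in all as the floor for a group at 0, Orm3 was at least 8.71-fold higher in m12_WD than in m12_CD and at least 5.40-fold higher in m12_WD+VC than in m12_CD+VC, again with no test. One library, m12_WD 1, held 30 of the 42 counts of m12_WD. The transcripts of Orm1 and Orm2 are 91.0% identical and share 20.4% of their 50-base stretches, so reads could be moved between the copies in counting. With the 3 entries summed, the log2 fold change was 1.90 ± 0.46 in m12_WD over m12_CD (adjusted p = 0.00331) and 1.55 ± 0.47 in m12_CD+VC over m12_CD (adjusted p = 0.0490).

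Ordered by group mean over all 8 groups, most neighbouring groups overlapped in their libraries. The exceptions were Hp in m12_WD over m12_WD+VC, Hpx in m12_CD+VC over w12_WD+VC, Lcn2 in m12_WD+VC over w12_WD+VC and Saa4 in w12_WD+VC over m12_WD+VC.

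**Figure D2:**
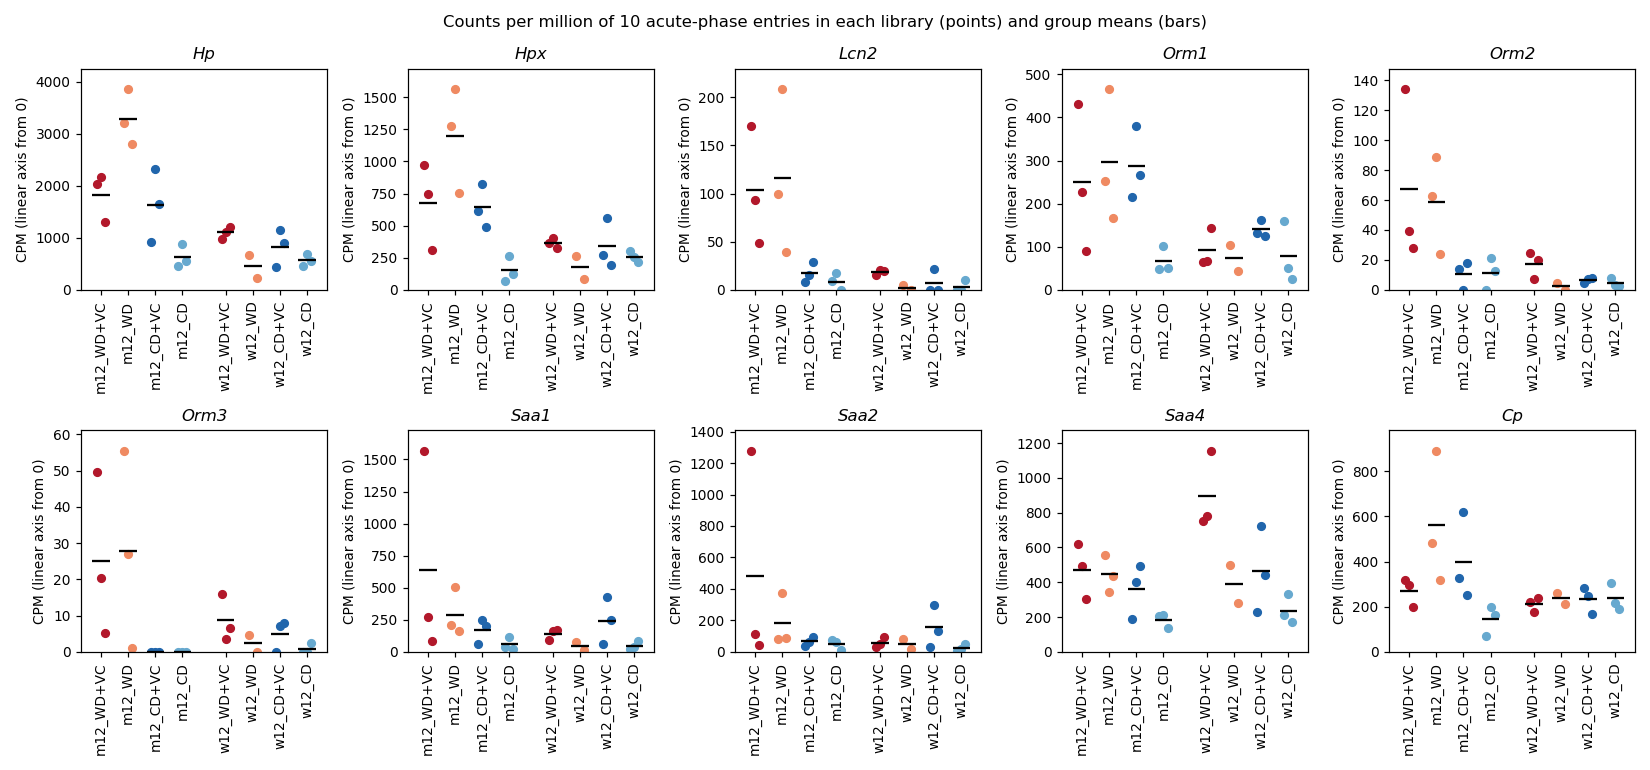
CPM of the 10 members in 23 libraries (points, linear axes from 0) with group means (bars), the m12 groups left of the w12 groups and w12_WD shown with 2 libraries. Hp in m12_WD lies between 2798 and 3868 CPM, above all other libraries, and 1 m12_WD+VC library stands at 1569 CPM for Saa1 and 1280 CPM for Saa2.

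Serum amyloid A proteins ride on high-density lipoprotein. Saa1 and Saa2 are the inducible forms, and Saa4 is the constitutive one. Saa1 stood at 1569, 268 and 84.7 CPM in m12_WD+VC, 207, 503 and 161 CPM in m12_WD, 59.4, 246 and 198 CPM in m12_CD+VC, and 39.1, 119 and 18.1 CPM in m12_CD. Saa2 stood at 1280, 115 and 46.2 CPM in m12_WD+VC, 79.6, 371 and 89.4 CPM in m12_WD, 39.6, 63.4 and 93.7 CPM in m12_CD+VC, and 75.3, 63.8 and 10.3 CPM in m12_CD. A single library, m12_WD+VC 1, held the highest level of both, while the other 2 of its group lay within the range of m12_WD or below it. The m12_WD libraries were above those of m12_CD for both genes, but neither difference passed the test: the log2 fold change was 1.90 ± 0.72 for Saa1 (adjusted p = 0.0528) and 1.41 ± 0.82 for Saa2 (adjusted p = 0.210). Saa1 was called in 5 of 14 alternatives (adjusted p from 0.000372 to 0.251), RLE factors, no filter and the compared groups alone among them, and Saa2 in 1 of 14, with no filter (adjusted p = 0.0317).

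In m12_WD+VC over m12_CD+VC, where the groups overlapped, the log2 fold change was 1.98 ± 0.71 for Saa1 (adjusted p = 0.161) and 2.80 ± 0.84 for Saa2 (adjusted p = 0.0842). Saa1 and Saa2 transcripts are 87.3% identical and share 13.2% of their 50-base stretches. Summed, they had a log2 fold change of 1.71 ± 0.75 in m12_WD over m12_CD (adjusted p = 0.0898) and 2.30 ± 0.75 in m12_WD+VC over m12_CD+VC (adjusted p = 0.116). Their levels moved together over the 23 libraries (Pearson r = 0.92, a description over libraries that share groups and depth). Saa1 took 34.2% to 79.5% of the counts of the pair, and in both w12_WD libraries the entries had equal counts, 33 each in the first and 2 each in the second.

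**Figure D3:**
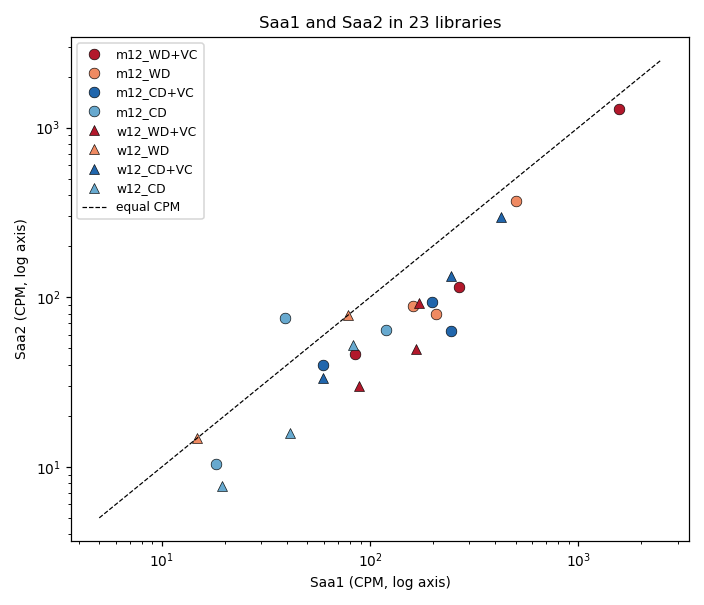
Saa2 against Saa1 in 23 libraries (CPM, both axes logarithmic), with circles for m12, triangles for w12 and a dashed line at equal CPM. The highest point is m12_WD+VC 1 at 1569 and 1280 CPM, and only m12_CD 1 lies above the dashed line.

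Saa4 kept another order of groups. It averaged 472 ± 161 CPM in m12_WD+VC, 448 ± 107 in m12_WD, 362 ± 156 in m12_CD+VC and 185 ± 41.6 in m12_CD (SD, n = 3). At 12 weeks it stood at 753, 782 and 1157 CPM in w12_WD+VC, 497 and 280 CPM in w12_WD, 230, 724 and 443 CPM in w12_CD+VC, and 209, 332 and 170 CPM in w12_CD. The w12_WD+VC libraries were the 3 highest of the series, and Saa4 was the only member of the 10 with its highest group mean at 12 weeks. Saa4 passed none of the tests of the main edgeR fit: the log2 fold change was 0.91 ± 0.38 in m12_WD over m12_CD (adjusted p = 0.0742, but called with RLE factors, adjusted p = 0.0123, and by DESeq2), 1.27 ± 0.42 in w12_WD+VC over w12_WD (adjusted p = 0.636) and −1.11 ± 0.37 in m12_WD+VC over w12_WD+VC (adjusted p = 0.171). In that last comparison, edgeR on the compared groups alone called 1 member lower, and so did limma-voom. Saa4 was the only member with a negative value there in the main fit.

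Western diet without VC at 12 months was the comparison that called most members. Of 8 members, 5 rose in m12_WD over m12_CD and 0 fell: Hp, Hpx, Cp, Lcn2 and Orm1. The filter kept Lcn2 through the m12 groups on WD, so its part in this count carries no weight. The same holds for its part in the overlap count and the median of members below. Over all 4198 genes tested 24.5% were called, 13.4% as higher. The groups did not overlap for 8 of 8 members, all higher in m12_WD, as for 28.9% of all genes. The median log2 fold change of the 8 was 1.82, beside 0.11 for all genes. Entries whose exons overlap no gene on the other strand, to which all members but Cp belong, had a median of 0.48, and they took 25.8% ± 3.9 of all counts in m12_WD and 15.5% ± 3.6 in m12_CD (SD, n = 3). Fitted among such entries alone, 4 members were still called, Hp (1.63), Hpx (2.24), Lcn2 (2.82) and Orm1 (1.33 on the log2 scale). The limit on Lcn2 applies there too.

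VC on the control diet, seen 9 months after the last exposure, called fewer. In m12_CD+VC over m12_CD, Hpx and Orm1 rose and 0 members fell, with 5.22% of all genes called and 4.1% called higher. Hp (log2 1.02 ± 0.35, adjusted p = 0.0727) and Cp (1.08 ± 0.34, adjusted p = 0.0583) did not pass, and their libraries did not overlap between the groups. Of all genes, 25.1% had groups that did not overlap with the higher values in m12_CD+VC, and 4 members did. Lcn2 (0.69 ± 0.89, adjusted p = 0.637), Orm2, Saa1, Saa2 and Saa4 were not called either. Both calls were lost without m12_CD 1, m12_CD 3 or m12_CD+VC 2, and among entries without an opposite-strand overlap alone, whose median here was 0.58 beside 0.07 for all genes. That set had 26.5% ± 4.6 of all counts in m12_CD+VC and 15.5% ± 3.6 in m12_CD. With RLE size factors in place of TMM, which moved the median of all genes by 0.41 in this comparison, by 0.39 in m12_WD over m12_CD and by −0.51 in the interaction below, Hp (1.48) and Cp (1.55) were called too.

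With both treatments 0 members were called in the main fit, and the fitted values went both ways. In m12_WD+VC over m12_CD+VC, 0 members passed by edgeR, by DESeq2 and by limma-voom, 3 of 8 had an unadjusted p under 0.05, and 1.81% of all genes were called. Those not called included Hp (log2 0.22 ± 0.34), Hpx (0.12 ± 0.38), Orm1 (−0.20 ± 0.45) and Cp (−0.47 ± 0.34), whose fitted values lay near 0. Saa1 (1.98 ± 0.71), Saa2 (2.80 ± 0.84) and Lcn2 (2.42 ± 0.74) had larger fitted values. Lcn2 was the 1 member of 8 whose groups did not overlap. With Orm2 and Orm3 counted, 4 members were called higher in this comparison with no filter. Among entries without an opposite-strand overlap alone there were 2 (37 genes called in all), and with the compared groups alone 1 (158 genes). In m12_WD+VC over m12_WD, 0 members passed by any of the 3 tools, 3 had an unadjusted p under 0.05, and 0.572% of all genes were called. Here Hp (−0.79 ± 0.34), Hpx (−0.78 ± 0.37) and Cp (−0.99 ± 0.33) had negative fitted values and Saa1 (1.19 ± 0.67) and Saa2 (1.47 ± 0.76) positive ones, with adjusted p from 0.227 to 0.508. Hp was the 1 member whose groups did not overlap, lower in m12_WD+VC, as were 8.98% of all genes.

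The interaction of diet and VC tests whether the VC effect on WD differs from that on CD. At 12 months it was negative for 4 members and positive for 0, with 9.81% of all genes called and 6.48% called negative. The difference of log2 fold changes was −1.81 ± 0.49 for Hp (adjusted p = 0.0203), −2.49 ± 0.54 for Hpx (adjusted p = 0.00741), −2.08 ± 0.48 for Cp (adjusted p = 0.00918) and −1.94 ± 0.64 for Orm1 (adjusted p = 0.0484). For Lcn2 it was −0.82 ± 1.07 (adjusted p = 0.643). For Saa1 it was 0.08 ± 1.04, and −1.73 without m12_WD+VC 1 (adjusted p = 0.203). Hpx and Cp kept the call in every alternative that gave a value, Hp lost it in 6 of 20 and Orm1 in 13 of 20, and with the 3 orosomucoids summed the value was −1.69 ± 0.64 (adjusted p = 0.0796). All entries without an opposite-strand overlap had a median of −0.73 in this contrast, beside −0.04 for all genes, and among them alone Hpx was the only member called (−1.92, adjusted p = 0.0382).

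**Figure D4:**
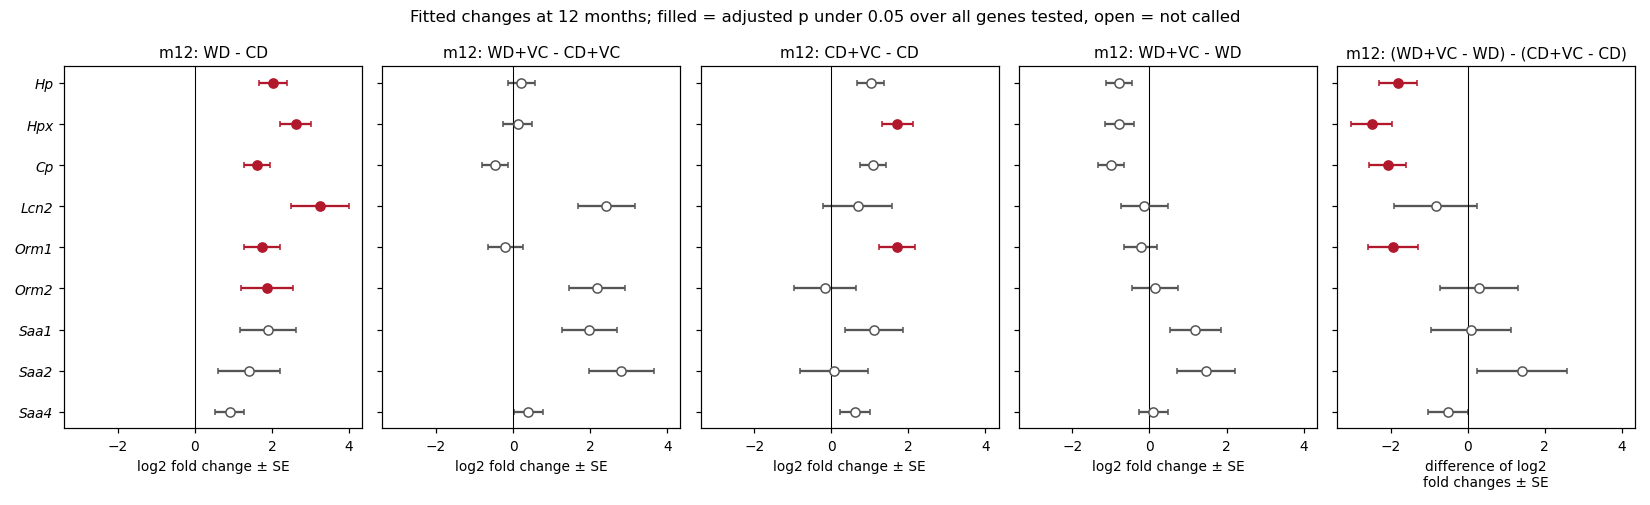
Fitted log2 fold changes ± SE of 9 members in the 5 contrasts at 12 months (columns), with filled red points for an adjusted p under 0.05 over all genes and open points otherwise. Orm3 is left out because it had 0 counts in both CD groups. Hp, Hpx, Cp and Orm1 are filled in the first and last columns, and Lcn2 and Orm2 have open points at 2.42 and 2.18 in the second. Lcn2 and Orm2 are filled in the first column too, but the filter kept both through the WD groups, so those fills carry no weight as tests.

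Over time, members were called in WD without VC. In m12_WD over w12_WD, 4 of 8 members rose and 0 fell, with 14.6% of all genes called and 7.74% called higher. Hp rose 6.45-fold (log2 2.69 ± 0.41, adjusted p = 3.8e-05), Hpx 5.52-fold (2.46 ± 0.46, adjusted p = 0.000477) and Orm1 3.21-fold (1.68 ± 0.54, adjusted p = 0.0330). The Orm1 call was lost in 7 of 14 alternatives (adjusted p up to 0.255). Lcn2 and Orm2 had 2 counts each in w12_WD. The ratio of pooled counts was 25.8 for Lcn2 and 13.6 for Orm2. Both are given with no interval or test because the filter kept these genes through the m12 groups on WD. Lcn2 is among the 4 called, so its part in that count carries no weight, and its call was lost without w12_WD 1. Whether the change over time in WD differed from that in WD+VC was not tested.

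Whether the diet effect differed between the times, without VC, was tested as well. It was larger at 12 months for Hp (difference of log2 fold changes 2.45 ± 0.53, adjusted p = 0.00649), Hpx (3.10 ± 0.60, adjusted p = 0.00304) and Cp (1.66 ± 0.51, adjusted p = 0.0438). Thus 3 members were called higher, beside 6.67% of all genes called and 3.41% called higher. The call of Cp was lost in 13 of 19 alternatives. Without w12_WD 2, 1 member was called.

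At 12 weeks 0 members passed in any comparison by the main edgeR fit, DESeq2 or limma-voom. The shares of all genes called were 0.0238% for w12_WD over w12_CD, 0.524% for w12_WD+VC over w12_CD+VC, 0% for w12_CD+VC over w12_CD and 0% for w12_WD+VC over w12_WD, and 0.0238% for the interaction. At an unadjusted p under 0.05 the members numbered 0, 2, 3, 3 and 0 of 8 in the same comparisons. Those in w12_WD+VC over w12_WD included Hp, with a log2 fold change of 1.36 ± 0.40 (adjusted p = 0.523). Those in w12_CD+VC over w12_CD were Saa1 (2.15 ± 0.77), Saa2 (2.31 ± 0.92) and Saa4 (0.93 ± 0.38). Time in the other 3 conditions called 0 members by the main edgeR fit and DESeq2, with 0.786% of all genes called in WD+VC, 6.38% in CD+VC and 1.62% in CD, and 5, 1 and 0 of 8 members at an unadjusted p under 0.05. In WD+VC, limma-voom called 2 members and, in CD+VC and CD, 0. The VC effect on CD did not differ detectably between the times for any member (0.143% of all genes called, 2 members at an unadjusted p under 0.05, and 0 called by DESeq2 or limma-voom).

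Other genes of the response were counted from fixed lists. Of the cytokines that drive it, Il6, Tnf, Osm, Il11, Il22 and Ifng had 0 counts in all 24 libraries, Il1b had 7 counts in all, and Il1a alone passed the filter (log2 −0.31 ± 0.32 in m12_WD over m12_CD, adjusted p = 0.502, with an opposite-strand overlap). Among the 11 receptors, 5 were tested and 0 changed in m12_WD over m12_CD, where all genes gave 24.5%. Of 25 kinases, transcription factors and feedback inhibitors, 11 were tested. Creb3l3, a liver factor of secretory and acute-phase genes, rose 1.96-fold (adjusted p = 0.0464), and 3 of the list fell, among them the hepatocyte transcription factors Cebpa (log2 −1.21 ± 0.28, adjusted p = 0.00205) and Onecut1 (−1.66 ± 0.56, adjusted p = 0.0297). Stat3 (−0.42, adjusted p = 0.572) and Cebpb (−0.42, adjusted p = 0.352) were not called.

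Secreted proteins that rise and secreted proteins that fall in inflammation went the same way in m12_WD over m12_CD. Of 24 tested proteins of the first kind besides the members, 10 rose and 0 fell, with a median log2 fold change of 1.17. The complement factors C3 (1.69 ± 0.34, adjusted p = 0.000523) and C4b (1.43 ± 0.35, adjusted p = 0.00373), the protease inhibitor Serpina1a (1.91 ± 0.48, adjusted p = 0.00404) and Itih3 (1.54 ± 0.39, adjusted p = 0.00449) led by adjusted p. Of 10 proteins of the second kind, 6 rose and 0 fell, with a median of 1.45, led by fetuin-A (Ahsg, 1.72 ± 0.35, adjusted p = 0.000657), transferrin (Trf, 1.73 ± 0.36, adjusted p = 0.000724), the corticosteroid carrier Serpina6 (2.67 ± 0.60, adjusted p = 0.00163) and retinol-binding protein (Rbp4, 1.68 ± 0.39, adjusted p = 0.00214). Saa3, the serum amyloid A gene that macrophages also make, did not pass the filter. It had 15 counts in m12_WD+VC, 26 in m12_WD, 0 in m12_CD+VC and 1 in m12_CD, an order of groups like that of Orm3, and was named after its values were seen.

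In the other contrasts at 12 months the same lists were counted again. In m12_CD+VC over m12_CD, 4 of 24 proteins of the first kind rose (C3, Plg, C4b and Ambp) and 7 of 10 of the second, and 0 fell in either. In m12_WD+VC over m12_CD+VC, 0 of 24 of the first kind were called and 1 of 10 of the second fell. The interaction was negative for 6 of 24 and for 8 of 10, positive for 0 in either, with medians of −1.60 and −1.89 beside −1.32 for the 8 members. Of 13 tested hepatocyte markers, 4 rose in m12_CD+VC over m12_CD (median 1.25) and 2 fell in m12_WD+VC over m12_CD+VC. Their interaction was negative for 6 and positive for 0, with a median of −1.76. Of all genes, 4.1% were called higher in m12_CD+VC over m12_CD and 6.48% were called negative in the interaction. In m12_WD+VC over m12_CD+VC, 1.81% were called in either direction. Entries without an opposite-strand overlap had medians of 0.58 in m12_CD+VC over m12_CD and −0.73 in the interaction. These comparisons share control libraries, so the counts are not independent of each other.

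Haem, iron and copper partners of the members followed in part. Of 25 listed, 9 were tested, and 5 rose and 0 fell in m12_WD over m12_CD: the ferritin chains Fth1 (log2 1.81 ± 0.34, adjusted p = 0.000302) and Ftl1 (1.59 ± 0.37, adjusted p = 0.00205), Trf, which also stands in the list above, biliverdin reductase Blvrb (1.89 ± 0.60, adjusted p = 0.0215), and Lrp1, the receptor for haem-laden hemopexin (0.93, adjusted p = 0.0354). Cd163, the macrophage receptor for haptoglobin with haemoglobin, had a value of 1.71 that was not called (adjusted p = 0.0821).

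Markers of cells other than hepatocytes were higher in the same contrast. Of 16 macrophage markers, 11 were tested, and 7 rose and 0 fell in m12_WD over m12_CD. Lyz2 and Ctss were among them, with Lyz2 at 201 counts in m12_WD and 3 in m12_CD, a ratio of 41.7 (exact 95% interval 14.1 to 204), and Ctss at 101 and 0 counts, at least 21.0-fold higher. The summed macrophage level ran from 375 to 660 CPM in m12_WD+VC, 711 to 921 CPM in m12_WD, 242 to 376 CPM in m12_CD+VC and 81.3 to 160 CPM in m12_CD. Of 13 tested hepatocyte markers 3 rose (Apob, Asgr1 and Cyp2e1), and their summed level ran from 6518 to 9910 CPM in m12_WD+VC, 8416 to 18778 CPM in m12_WD, 15994 to 34567 CPM in m12_CD+VC and 2650 to 9805 CPM in m12_CD. Endothelial and stellate markers rose in 3 of 3 tested and the 1 bile duct marker tested, Spp1, which macrophages also make, rose too, while 0 of 10 lymphocyte markers passed the filter. Which groups let a gene pass the filter was checked for the members alone. A listed gene kept through m12_WD would be high there by selection, so the list counts carry that limit. The part of cell makeup in the members' values was not tested.

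**Figure D5:**
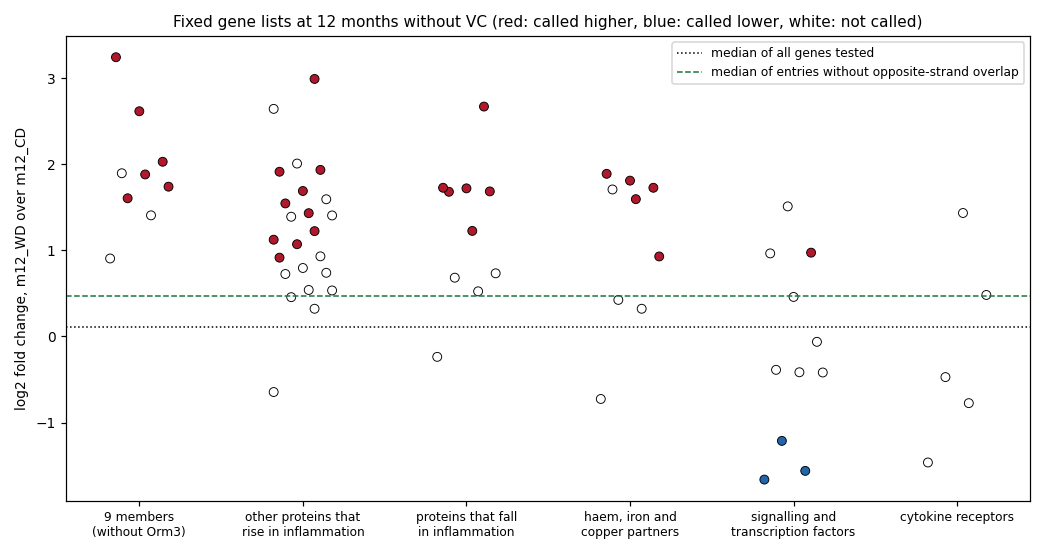
Log2 fold change of m12_WD over m12_CD for 9 members and for the tested genes of 5 lists, with red for called higher, blue for called lower and white for not called. The red points of Lcn2 and Orm2 carry no weight as tests, because the filter kept both through the WD groups. The dotted line is the median of all genes (0.11) and the dashed line that of entries without an opposite-strand overlap (0.48). Members and both kinds of plasma protein lie mostly above the lines, and the 3 blue points, Cebpa and Onecut1 among them, lie in the list of signalling and transcription factors.

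Likeness over the 23 libraries was described by Pearson's r of log2 CPM, over points that share groups, library and depth. Among the members, Saa1 and Saa2 were most alike (0.92), followed by Hp and Hpx (0.87) and Hp and Lcn2 (0.84), and Saa4 and Cp were least alike (0.02). Outside the members, Hp was nearest to C3 (0.92), Itih3 (0.88), Rpl13 (0.87), Bgn (0.87) and Rps10 (0.86). The nearest gene was Ahsg for Hpx (0.94), Gc for Cp (0.91), Clu for Orm1 (0.90), Fxyd5 for Orm2 (0.88), Itih4 for Saa1 (0.80), Mt1 for Orm3 (0.78) and for Saa2 (0.69), and Hnrnpu for Saa4 (0.70). The metallothionein Mt1 thus stood nearest to 2 members, and plasma proteins stood nearest to Hp, Hpx, Cp, Orm1 and Saa1.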

How the data were processed

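RNA from 24 mouse liver libraries was measured by ribosome-depleted sequencing. The submitters' processing notes name the counter HTSeq 0.11.2, the aligner HISAT2 2.1.0, the trimmer Trimmomatic 0.38 and genome mm10. The authors deposited raw counts per gene, and log2 values that equalled log2 of the count over a size factor plus 1, to within 1e-06 in all 586104 values checked. No source used here gives the annotation or strand setting. Only the counts were tested.

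Genes were filtered with filterByExpr, scaled by TMM and fitted with edgeR 4.0.16 (quasi-likelihood, R 4.3.3) to 8 group means over all 24 libraries, with Benjamini-Hochberg adjustment over 4198 genes and a threshold of 0.05. The biological coefficient of variation was 0.317. Alternatives used RLE factors, no filter, DESeq2 1.42.0, limma 3.58.1 (voom with quality weights), a replicate block, the compared groups alone, the 23 deeper libraries and leaving out single libraries. Entries without an opposite-strand overlap (bedtools 2.31.1) and summed related genes were added after seeing the data. Upstream sequences came from RefSeq.

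Members and lists were chosen with earlier results of these data known. Named genes were all 10 members, up to 4 called genes of smallest adjusted p per list in comparisons calling a member, and the 5 genes most like Hp and 1 most like each other member. Of these, 2 are not reported here. Lrp1, Cd163, Stat3, Cebpb, Il1a, S100a9, Saa3 and Hps3 fall outside this rule and were named after their values were seen. Comparisons that share control libraries are not independent.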

Additional observations from a re-analysis of the deposited data

Results flagged for a closer look

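At 12 months the VC effect differed between the diets for 4 members, by a test of the difference itself (edgeR, adjusted over all genes): −1.81 on the log2 scale for Hp, −2.49 for Hpx, −1.94 for Orm1 and −2.08 for Cp. The diet effect without VC differed between 12 months and 12 weeks for 3 members: 2.45 on the log2 scale for Hp, 3.10 for Hpx and 1.66 for Cp. Groups of 3 libraries were not screened for single libraries far from the others.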

How the results depend on the processing

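Of 795 alternative values for 50 member results, 663 kept their direction and side of the threshold, 66 lost a call, 19 gained one, and 47, called in neither fit, changed sign or moved to or from 0. No called value changed sign. Causes were not tested, except that leaving out libraries or genes reduces what is tested. Replicate numbers did not pair the libraries: in Western diet without VC at 12 months the pair correlations ran from −0.20 to 0.14, and the replicate block called 6 of 10 members where the fit without it called 7, Orm2 being the difference. Counts of members here cover all 10. They include Orm2, Orm3 and Lcn2, which the filter kept through the m12 groups on WD. Calls of these genes against other groups in the filtered fits therefore carry no weight. Counts of called genes that moved by over 1.5 times follow, with the main count in brackets. Genes called with DESeq2 numbered 162 (280) in diet by time without VC, 252 (412) in diet by VC interaction, 12 months, 0 (1) in diet by VC interaction, 12 weeks, 125 (268) in time in CD+VC, 366 (613) in time in WD, 0 (6) in VC by time on control diet, 14 (24) in VC on Western diet, 12 months, 44 (76) in Western diet with VC, 12 months and 0 (1) in Western diet without VC, 12 weeks. Members called with DESeq2 numbered 4 (2) in VC on control diet, 12 months. Genes called with the compared groups alone numbered 186 (280) in diet by time without VC, 40 (68) in time in CD, 137 (268) in time in CD+VC, 170 (33) in time in WD+VC, 0 (6) in VC by time on control diet, 73 (219) in VC on control diet, 12 months, 11 (24) in VC on Western diet, 12 months, 17 (0) in VC on Western diet, 12 weeks, 158 (76) in Western diet with VC, 12 months, 13 (22) in Western diet with VC, 12 weeks, 610 (1028) in Western diet without VC, 12 months and 6 (1) in Western diet without VC, 12 weeks. Members called with the compared groups alone numbered 2 (0) in time in WD+VC, 2 (0) in VC on Western diet, 12 weeks and 1 (0) in Western diet with VC, 12 months. Genes called with entries without opposite-strand overlap alone numbered 86 (280) in diet by time without VC, 141 (412) in diet by VC interaction, 12 months, 0 (1) in diet by VC interaction, 12 weeks, 22 (68) in time in CD, 80 (268) in time in CD+VC, 240 (613) in time in WD, 3 (33) in time in WD+VC, 0 (6) in VC by time on control diet, 20 (219) in VC on control diet, 12 months, 1 (0) in VC on control diet, 12 weeks, 9 (24) in VC on Western diet, 12 months, 37 (76) in Western diet with VC, 12 months, 6 (22) in Western diet with VC, 12 weeks, 369 (1028) in Western diet without VC, 12 months and 0 (1) in Western diet without VC, 12 weeks. Members called with entries without opposite-strand overlap alone numbered 1 (3) in diet by time without VC, 1 (4) in diet by VC interaction, 12 months, 0 (2) in VC on control diet, 12 months, 2 (0) in Western diet with VC, 12 months and 4 (7) in Western diet without VC, 12 months. Genes called with no expression filter numbered 232 (412) in diet by VC interaction, 12 months, 7 (1) in diet by VC interaction, 12 weeks, 138 (268) in time in CD+VC, 54 (33) in time in WD+VC, 20 (6) in VC by time on control diet, 103 (219) in VC on control diet, 12 months, 5 (0) in VC on control diet, 12 weeks, 10 (0) in VC on Western diet, 12 weeks, 41 (22) in Western diet with VC, 12 weeks and 6 (1) in Western diet without VC, 12 weeks. Members called with no expression filter numbered 2 (4) in diet by VC interaction, 12 months, 3 (0) in time in WD+VC, 2 (0) in VC on control diet, 12 weeks and 4 (0) in Western diet with VC, 12 months. Genes called with RLE factors numbered 0 (1) in diet by VC interaction, 12 weeks, 10 (6) in VC by time on control diet, 442 (219) in VC on control diet, 12 months and 46 (76) in Western diet with VC, 12 months. Members called with RLE factors numbered 4 (2) in VC on control diet, 12 months. Genes called with limma-voom numbered 154 (68) in time in CD, 239 (33) in time in WD+VC, 0 (6) in VC by time on control diet, 134 (219) in VC on control diet, 12 months, 3 (0) in VC on Western diet, 12 weeks, 159 (76) in Western diet with VC, 12 months, 40 (22) in Western diet with VC, 12 weeks and 6 (1) in Western diet without VC, 12 weeks. Members called with limma-voom numbered 2 (0) in time in WD+VC. Genes called with libraries over 100000 counts alone numbered 0 (6) in VC by time on control diet and 1 (0) in VC on Western diet, 12 weeks. Genes called with the replicate block numbered 1 (0) in VC on Western diet, 12 weeks and 2 (1) in Western diet without VC, 12 weeks. With single libraries left out, genes called ranged from 645 to 1069 in Western diet without VC, 12 months, 2 to 72 in Western diet with VC, 12 months, 0 to 219 in VC on control diet, 12 months, 10 to 24 in VC on Western diet, 12 months, 87 to 626 in diet by VC interaction, 12 months, 0 to 1 in Western diet without VC, 12 weeks, 0 to 46 in Western diet with VC, 12 weeks, 0 to 0 in VC on control diet, 12 weeks, 0 to 3 in VC on Western diet, 12 weeks, 0 to 3 in diet by VC interaction, 12 weeks, 24 to 69 in time in CD, 52 to 189 in time in CD+VC, 176 to 638 in time in WD, 2 to 25 in time in WD+VC, 44 to 358 in diet by time without VC, 0 to 8 in VC by time on control diet. With single libraries left out, members called ranged from 5 to 8 in Western diet without VC, 12 months, 0 to 1 in Western diet with VC, 12 months, 0 to 2 in VC on control diet, 12 months, 0 to 0 in VC on Western diet, 12 months, 2 to 4 in diet by VC interaction, 12 months, 0 to 0 in Western diet without VC, 12 weeks, 0 to 0 in Western diet with VC, 12 weeks, 0 to 0 in VC on control diet, 12 weeks, 0 to 0 in VC on Western diet, 12 weeks, 0 to 0 in diet by VC interaction, 12 weeks, 0 to 0 in time in CD, 0 to 0 in time in CD+VC, 2 to 6 in time in WD, 0 to 1 in time in WD+VC, 1 to 3 in diet by time without VC, 0 to 0 in VC by time on control diet. By direction, RLE factors gave 434 higher and 8 lower in VC on control diet, 12 months, beside 172 higher and 47 lower with TMM, and 11 higher and 241 lower with DESeq2 in the diet by VC interaction, 12 months, beside 140 higher and 272 lower. Depth limits Orm2, Orm3 and Lcn2 most: a count of 0 allowed up to 23.8 CPM.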
